A study of Mus musculus with 2 samples.

Results

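*Sh3bgr*, *Sh3bgrl*, *Sh3bgrl2* and *Sh3bgrl3* make up the Sh3bgr family, 4 of the 14425 genes listed in the deposited expression table of mouse spiral ganglion neurons. *Sh3bgr* was chosen by its high measured ratio between the 2 libraries of this study, and its 3 paralogues were added by name. The *Sh3bgr* ratio between libraries is therefore given as a description and not as a finding. Single-cell RNA was measured with the 10x Genomics 3′ assay (v3) in 462 cells of a control library, called iCON, and 407 cells of a library called iCKO.

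The iCON mice were Runx1-CreER/+; Ai14/+ and the iCKO mice were Runx1-CreER/Runx1F; Ai14/+. Both groups carried CreER, a Cre recombinase activated by tamoxifen and driven by *Runx1*, and the Ai14 reporter, which makes the red protein tdTomato after recombination. Both received tamoxifen on postnatal day 1, and the cochleae of mice of both sexes were collected on postnatal days 27 to 29. The floxed *Runx1* allele (Runx1F) was in the iCKO mice only. Cells were freed with collagenase and papain and sorted for tdTomato, a sort that selects cells in which the *Runx1* driver recombined the reporter. Each genotype was 1 library, the number of animals behind it is not given in the labels, and no difference between the libraries can be tested against animals.

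Proteins of this family are small and have a thioredoxin-like fold, the fold of the glutaredoxins. Sh3bgr is best known from heart and skeletal muscle, carries a tail rich in glutamic acid, and has a proline-rich stretch of the kind that binds SH3 domains. Sh3bgrl and Sh3bgrl2 are shorter and lack the long tail, and Sh3bgrl3 is the shortest. The human *SH3BGR* gene lies in a chromosome region studied in Down syndrome. Spiral ganglion neurons carry sound signals from the cochlea to the brain. Most are type I neurons, which contact inner hair cells and fall into Ia (high *Calb2*), Ib and Ic (high *Lypd1*) subtypes, and a few are type II neurons, which contact outer hair cells.

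The 4 genes lie on 4 chromosomes. In the GENCODE M21 annotation of GRCm38, *Sh3bgr* (ENSMUSG00000040666.19) is at chr16:96200450-96228935 on the plus strand, with its start 3.37 Mb beyond the end of *Runx1* on the same chromosome. *Sh3bgrl* (ENSMUSG00000031246.14) is at chrX:109095365-109197873 on the plus strand, *Sh3bgrl2* (ENSMUSG00000032261.16) at chr9:83548327-83638801 on the plus strand, and *Sh3bgrl3* (ENSMUSG00000028843.8) at chr4:134127406-134128789 on the minus strand. The annotated *Sh3bgr* transcript has 8 exons and 642 coding nucleotides. Those of *Sh3bgrl* and *Sh3bgrl2* have 4 exons each, with 342 and 321 coding nucleotides, and that of *Sh3bgrl3* has 3 exons and 279.

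The first 90 coding bases of each gene show the shared start of the proteins and how far the copies have drifted apart. They are written from the start codon, *Sh3bgr* in lower case, and capitals in the paralogues mark bases identical to *Sh3bgr* in a pairwise alignment.
Sh3bgr: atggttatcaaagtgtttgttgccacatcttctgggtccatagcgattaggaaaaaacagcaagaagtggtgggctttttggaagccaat
Sh3bgrl: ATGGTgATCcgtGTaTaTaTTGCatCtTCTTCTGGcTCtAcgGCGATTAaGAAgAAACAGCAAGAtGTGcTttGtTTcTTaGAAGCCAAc
Sh3bgrl2: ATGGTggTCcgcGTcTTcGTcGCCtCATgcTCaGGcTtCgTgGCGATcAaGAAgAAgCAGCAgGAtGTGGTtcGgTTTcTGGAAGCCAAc
Sh3bgrl3: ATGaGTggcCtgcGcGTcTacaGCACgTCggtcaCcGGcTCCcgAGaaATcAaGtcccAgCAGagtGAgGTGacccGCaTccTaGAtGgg
In this stretch 66 of 90 bases of *Sh3bgrl*, 63 of 90 of *Sh3bgrl2* and 44 of 86 aligned bases of *Sh3bgrl3* matched *Sh3bgr*. Over the aligned coding sequence the identity with *Sh3bgr* was 68.2% for *Sh3bgrl* (333 nucleotides aligned), 65.1% for *Sh3bgrl2* (321) and 56.6% for *Sh3bgrl3* (274).

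The 3′ assay reads the end of a transcript, and there no member had a near copy in another member. The last 500 nucleotides of each transcript were searched against all annotated transcripts for matches of at least 90 nucleotides. *Sh3bgr*, *Sh3bgrl* and *Sh3bgrl2* gave no match outside their own gene. *Gm6377*, a gene on the same strand that is absent from the table, overlaps the annotated end of the *Sh3bgrl* gene. Its part in the *Sh3bgrl* counts was not tested. The end of *Sh3bgrl3* shared 188 nucleotides, at 100% identity, with the end of *Ubxn11*, a gene that overlaps it on the opposite strand and is also in the table. Whether the counting used strand is not given in the sources used here, so the values of *Sh3bgrl3* are uncertain to that extent.

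The median depth was 49725.5 UMIs (unique molecular identifiers, each standing for a captured RNA molecule) in an iCON cell and 33602 in an iCKO cell. No barcode was shared by the libraries. Of 6 neuron markers, 5 passed the minimum level and 0 of these were past the fold used here, with a median log2 ratio of -0.08. The highest was *Nefm*, a neurofilament gene, just under the fold at 0.49 (41.0 in iCON and 57.6 in iCKO), and *Syt1*, under the minimum, was at -0.69. Defining markers of muscle (*Acta1* and *Ckm*, 2 of 5 listed), myeloid cells (*Csf1r*, 1 of 4) and endothelium (*Cldn5*, 1 of 3) had at most 4 UMIs in a library. Of the fibroblast or bone list 4 of 4 genes were listed, with a summed mean of 1.05 per 10000 in iCON and 0.790 in iCKO, mostly *Col1a2* (2041 and 1035 UMIs), and its part in the results was not tested. Cells with at least 3 UMIs per 10000 of 6 type II genes (*Prph*, *Gata3*, *Th*, *Plk5*, *Smad3*, *Etv4*) are called type II-like. There were 30 in iCON and 7 in iCKO, with no cell between 1.70 and 8.78, and the other cells are called type I. RNA of the Schwann or satellite glia list was lower in iCKO: 8 of 8 genes were listed, their summed mean was 37.2 per 10000 in iCON (0 to 152 per cell) and 19.1 in iCKO (0 to 60.7), and 4 of 5 above the minimum were past the fold. Over all 3761 genes above the minimum, 1.62% were higher and 2.74% lower past the fold in iCKO. *Runx1* itself had 0.867 UMIs per 10000 in iCON and 1.12 in iCKO. The floxed exons are not named in the labels, and 3′ reads outside a deleted part do not report the deletion, so *Runx1* detection is not a measure of an intact gene in iCKO cells.

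The level of a gene below is its mean over cells in UMIs per 10000 UMIs of the cell. A log2 ratio is that of the means with a pseudocount of 0.05 added to each. The interval beside it is the exact 95% interval for summed UMIs of 1 side over those of the other, with no pseudocount. It weights cells by depth, can lie to 1 side of the ratio of means, and covers counting error only. A gene is past the fold when its log2 ratio exceeds 0.5 in size. It counts only where the mean is at least 0.5 and at least 25% of cells on 1 side of the comparison have a UMI. This is the minimum level below. Levels of different genes are not compared, since a 3′ UMI level depends on how each transcript end is captured.

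*Sh3bgr* was the member that set the libraries apart. In iCON cells its level was 0.331 (SD over cells 0.592, median 0, highest cell 3.50, from 800 UMIs). In iCKO cells the level was 1.46 (SD 1.16, median 1.28, highest cell 4.92, from 2045 UMIs). Cells of the libraries overlapped from 0 to the highest iCON cell, with the iCON median at 0 and most iCKO cells above it. The log2 ratio of iCKO over iCON was 1.99 (1.91 to 2.15). A *Sh3bgr* UMI was present in 47.2% of iCON cells (exact binomial interval 42.6% to 51.9%) and in 85.7% of iCKO cells (82.0% to 89.0%). With every cell thinned to 20000 UMIs the shares were 32.4% of 454 cells and 79.0% of 405 cells. At least 1 UMI per 10000 was found in 47 iCON cells (10.2%) and 236 iCKO cells (58.0%).

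The paralogues did not share this difference. *Sh3bgrl* had a level of 0.408 in iCON (822 UMIs) and 0.275 in iCKO (376 UMIs), a log2 ratio of -0.50 (-0.63 to -0.27). *Sh3bgrl2* had levels of 0.155 (336 UMIs) and 0.152 (208 UMIs), a log2 ratio of -0.02 (-0.27 to 0.24). *Sh3bgrl3* had levels of 1.61 (SD 0.910, 3483 UMIs) and 1.46 (SD 0.812, 1980 UMIs), a log2 ratio of -0.14 (-0.22 to -0.06). The largest of these 3 differences, that of *Sh3bgrl*, was towards iCON. After thinning, the shares of cells with a UMI in iCON and iCKO were 50.9% and 37.3% for *Sh3bgrl*, 24.7% and 25.9% for *Sh3bgrl2*, and 94.7% and 91.9% for *Sh3bgrl3*.

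Of the 4 members, *Sh3bgr* and *Sh3bgrl3* passed the minimum, *Sh3bgr* through its iCKO level alone. *Sh3bgr* was past the fold, higher in iCKO, as were 1.62% of the 3761 genes above the minimum. No member was past it in the other direction, where 2.74% of those genes lay. The rule for the members used this contrast, and nothing is read from the count. Of the 8545 genes that reached a mean of 0.1 in a library, *Sh3bgr* had the second highest ratio, with *Sh3bgrl* at percentile 3.32, *Sh3bgrl2* at 50.3 and *Sh3bgrl3* at 27.6. The only gene above *Sh3bgr* was *Pcp4*, with a log2 ratio of 3.14 that came from 2 iCKO cells holding 1100 and 442 of its UMIs. Without those cells its ratio was -0.09.

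**Figure D1:**
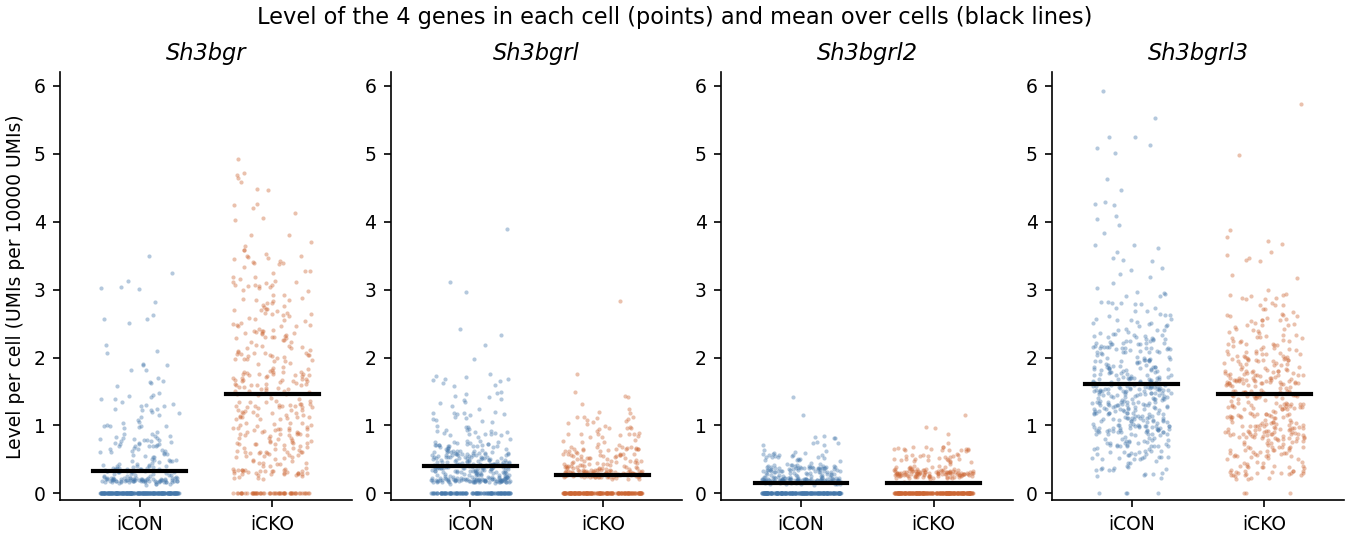
Level of each of the 4 genes in every cell (points, UMIs per 10000 UMIs) in the iCON and iCKO libraries, with the mean over cells as a black line. The mean of *Sh3bgr* is 0.331 in 462 iCON cells and 1.46 in 407 iCKO cells, and the lines of the 3 paralogues lie close together or lower in iCKO.

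*Sh3bgr* was then followed by the level of *Lypd1*, an Ic marker. Both *Lypd1* and *Calb2* differ between the libraries themselves (mean *Lypd1* 16.04 in iCON and 10.3 in iCKO, mean *Calb2* 58.1 and 133), so a class holds cells of the same marker level and not necessarily of the same origin. Below 1 *Lypd1* UMI per 10000, *Sh3bgr* had a level of 0.442 in 256 iCON cells and 1.32 in 261 iCKO cells, a log2 ratio of 1.48 (1.31 to 1.59). From 1 to under 10, the 26 iCON cells had 0.166 and the 20 iCKO cells 1.87 (3.15, 2.76 to 4.18). At 10 or more, the 180 iCON cells had 0.197 and the 126 iCKO cells 1.68 (2.81, 2.80 to 3.27). Over cells with low *Lypd1*, cells with high *Lypd1* had a log2 ratio of -0.99 (-1.51 to -1.03) in iCON and 0.34 (0.18 to 0.45) in iCKO. In iCON both levels were under the minimum, and in iCKO the ratio was under the fold, so neither counts as past the fold here. The low *Lypd1* class held all type II-like cells. In type I cells alone, high over low *Lypd1* gave -1.14 (-1.62 to -1.13) in iCON, with levels of 0.197 and 0.495. In iCKO it gave 0.30 (0.16 to 0.43), and the same limits apply.

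By *Calb2*, a calcium-binding protein gene and Ia marker, the ratio between the libraries was lowest where *Calb2* was high. The amount varied with the boundaries and between cells with *Xist* and with Y-linked RNA. Below 10 *Calb2* UMIs per 10000, *Sh3bgr* had a level of 0.179 in 172 iCON cells and 0.941 in 38 iCKO cells, a log2 ratio of 2.11 (2.22 to 2.91). From 10 to under 100, the levels were 0.201 in 204 iCON cells and 1.56 in 142 iCKO cells (2.68, 2.68 to 3.14). At 100 or more, they were 0.943 in 86 iCON cells and 1.48 in 227 iCKO cells (0.62, 0.45 to 0.77). With boundaries of 5 and 50 the ratios of the low, middle and high classes were 2.07, 2.44 and 1.27. With the original boundaries cells with *Xist* RNA gave 2.57, 2.43 and 0.52, and those with Y-linked RNA gave 1.27, 2.80 and 0.76. The low class held all type II-like cells, 30 *Xist* cells in iCON and 7 Y-linked cells in iCKO, with little *Sh3bgr*. Their part in the 2.57 and 1.27 was not tested. Type I cells of the low class had levels of 0.208 in 142 iCON cells and 1.14 in 31 iCKO cells. Of the iCON classes, the first pair lay close together and the third stood well above them. Of the iCKO classes, the upper pair lay close together and the first, which included the type II-like cells, lay lower.

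The same contrast can be read within each library. The choice of *Sh3bgr* used the ratio between the libraries of these same cells. High *Calb2* cells were 86 of 462 in iCON and 227 of 407 in iCKO. The values within a library are therefore not independent of that choice and are given as descriptions. In iCON, cells with high *Calb2* had 2.12 (2.05 to 2.59) more *Sh3bgr* on the log2 scale than cells with low *Calb2*. *Sh3bgr* passed the minimum there through the high *Calb2* class alone (levels 0.943 and 0.179), so its place past the fold, with 4.73% of the genes above the minimum, follows from that and nothing is read from it. Against cells of the middle *Calb2* class the log2 ratio was 1.98 (1.97 to 2.46), where 1.54% of genes were higher past the fold. There too *Sh3bgr* passed the minimum through the high class alone (0.943 and 0.201), and nothing is read from that share. In iCKO, high over low *Calb2* gave 0.63 (0.11 to 0.63), a direction in which 5.75% of genes were past the fold, and high over middle gave -0.07 (-0.22 to 0.05). Among type I cells alone, high over low *Calb2* gave 1.95 (1.91 to 2.46) in iCON and 0.37 (-0.08 to 0.45) in iCKO, with 4.12% and 4.18% of genes higher past the fold. In iCON the minimum was again met in the high class alone (0.943 and 0.208), and nothing is read from the 4.12%. By counting error, the iCON intervals of these ratios lay above 0, and the iCKO interval for type I cells included 0.

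*Runx1* detection divided the iCON cells in a similar way. In cells with at least 1 *Runx1* UMI, *Sh3bgr* had a level of 0.269 in 373 iCON cells and 1.48 in 342 iCKO cells, a log2 ratio of 2.26 (2.21 to 2.49). In cells with none, the levels were 0.590 in 89 iCON cells and 1.34 in 65 iCKO cells (1.12, 0.77 to 1.25). The undetected class held all 30 iCON and all 7 iCKO type II-like cells. Among type I cells without a *Runx1* UMI the levels were 0.868 in 59 iCON cells and 1.49 in 58 iCKO cells (0.75, 0.47 to 0.95). Within type I cells, detected over undetected gave -1.52 (-1.90 to -1.46) in iCON, a direction in which 1.87% of genes were past the fold, and -0.01 (-0.21 to 0.14) in iCKO. In these iCON cells *Sh3bgr* met the minimum without a *Runx1* UMI alone (0.868 against 0.269), so nothing is read from that share. A missing UMI is not a missing transcript, and the shallower iCKO cells have a lower chance of showing one.

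Of the 59 iCON type I cells without a *Runx1* UMI, 48 had high *Calb2*, so the high *Calb2* class was divided by *Runx1* detection. Of 86 iCON cells with at least 100 *Calb2* UMIs per 10000, *Sh3bgr* had a level of 0.918 in the 38 with *Runx1* and 0.962 in the 48 without (log2 ratio -0.06, -0.43 to 0.12). In iCKO the levels were 1.49 in 175 cells with *Runx1* and 1.44 in 52 without (0.05, -0.15 to 0.25). These intervals cover counting error only and still allow differences of the sizes they span. In each library fewer than 2% of genes were past the fold in either direction (iCON 0.463% higher and 1.99% lower, iCKO 0.986% and 0.548%), and *Sh3bgr* was not among them.

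Across the 8 classes by *Lypd1*, *Calb2* and *Runx1* detection, *Sh3bgr* was past the fold towards iCKO in 8 of 8. This is the contrast that chose *Sh3bgr*, and the classes share the same cells. In 6 of the 8 the gene passed the minimum through iCKO alone, the exceptions being high *Calb2* (0.943 in iCON) and no *Runx1* UMI (0.590). Nothing is read from the count. The share of genes higher past the fold was 1.61%, 5.73% and 1.79% in the low, middle and high *Lypd1* classes. It was 2.18%, 1.59% and 1.44% in the *Calb2* classes, 1.64% with *Runx1* and 6.1% without. Without a *Runx1* UMI, *Sh3bgrl* was past the fold towards iCON, with levels of 0.805 in iCON and 0.435 in iCKO. There *Sh3bgrl* passed the minimum through iCON alone, in the class that held the type II-like cells, and nothing is read from that.

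**Figure D2:**
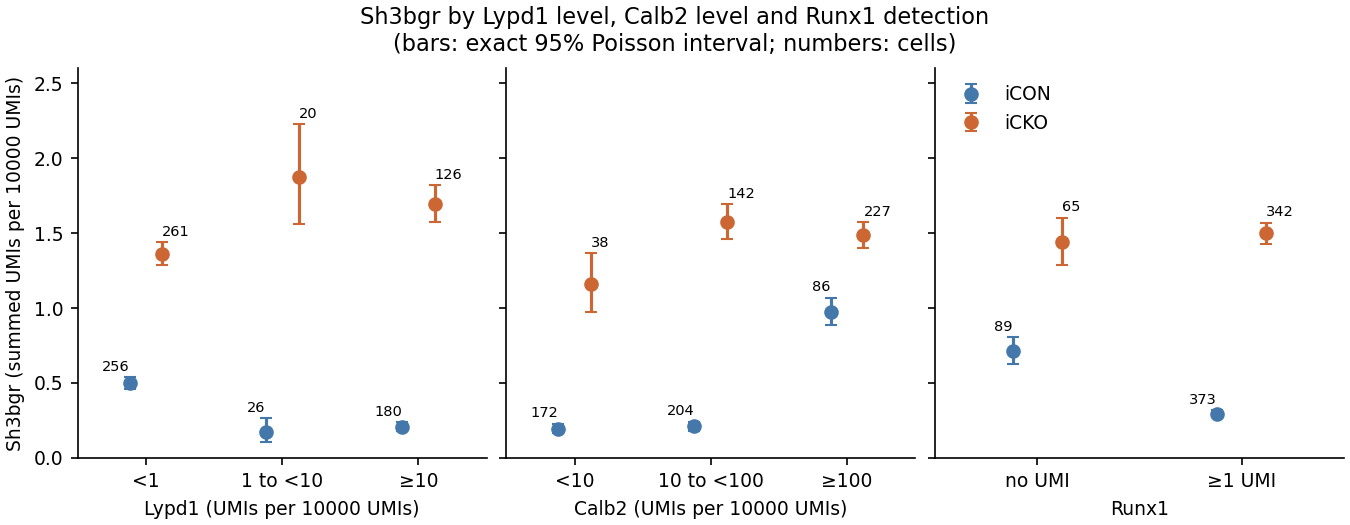
*Sh3bgr* level (summed UMIs per 10000 UMIs, bars are exact 95% Poisson intervals, numbers are cells) by *Lypd1* level, *Calb2* level and *Runx1* detection in iCON and iCKO. The iCON point at high *Calb2* (86 cells) comes nearest to its iCKO partner (227 cells), and the other iCON classes lie lower.

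Joining the *Lypd1* and *Calb2* classes separated cells that carried both markers. Among cells with at least 10 *Lypd1* UMIs per 10000, the iCON library had 140 with low *Calb2*, 39 with middle and 1 with high *Calb2*, and the iCKO library had 30, 82 and 14. *Sh3bgr* levels in these iCON cells were 0.204 at low and 0.161 at middle *Calb2*, and 0.643 in the single cell with high *Calb2*. In the iCKO cells they were 1.05, 1.83 and 2.14 in that order. Among iCKO cells with high *Lypd1*, middle over low *Calb2* gave a log2 ratio of 0.77 (0.40 to 1.01), with 1.59% of genes higher past the fold, and in iCON it gave -0.27 (-0.92 to 0.24). Where *Lypd1* was under 1 and *Calb2* at least 100, the levels were 0.947 in 85 iCON cells and 1.38 in 201 iCKO cells.

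The number of *Sh3bgr* UMIs varied more from cell to cell than counting alone would give. After thinning to 20000 UMIs, iCON cells had a mean of 0.689 *Sh3bgr* UMIs, a variance 2.64 times the mean, and 67.6% of cells at 0, where a Poisson count with that mean has 50.2%. The iCKO cells had a mean of 2.94, a variance 2.30 times the mean and 21.0% at 0, against 5.27% for a Poisson count. At least 5 UMIs were found in 2.42% of iCON and 24.7% of iCKO cells. In the high *Calb2* class, 33.3% of 84 iCON cells and 17.2% of 227 iCKO cells were at 0. In the high *Lypd1* class the shares at 0 were 75.8% of 178 and 19.2% of 125 cells, and those with at least 5 were 1.12% and 31.2%. The iCKO library therefore held both cells without a *Sh3bgr* UMI and cells with many, at each marker level shown.

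**Figure D3:**
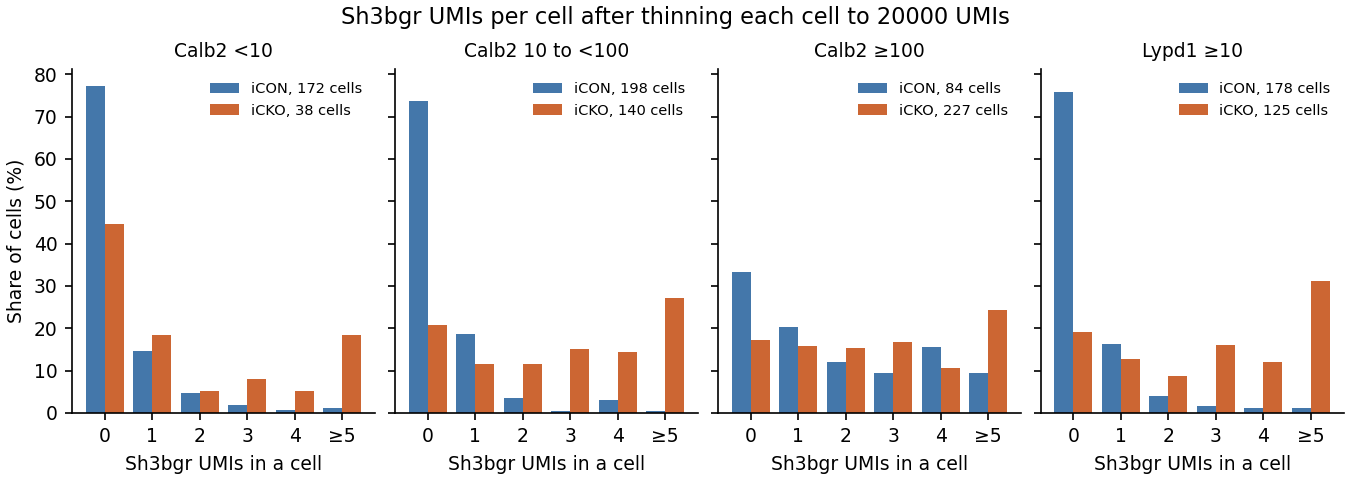
Share of cells (%) by number of *Sh3bgr* UMIs after each cell was thinned to 20000 UMIs, in iCON and iCKO, for 3 *Calb2* classes and for cells with high *Lypd1*. At high *Calb2* 33.3% of iCON and 17.2% of iCKO cells are at 0, and at high *Lypd1* 75.8% and 19.2%.

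Type II-like cells had little *Sh3bgr* in either library. The 30 iCON cells held 5 *Sh3bgr* UMIs in all, a level of 0.0431, and 4 of them (13.3%) had a UMI at a median depth of 31229. The 7 iCKO cells held 1 UMI, at a median depth of 20915. After thinning, 10.0% of the iCON type II-like cells had a UMI, against 34.0% of iCON and 80.2% of iCKO type I cells. The type I levels were 0.351 in 432 iCON cells and 1.48 in 400 iCKO cells, a log2 ratio of 1.93 (1.88 to 2.11), with 1.47% of genes higher past the fold.

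*Sh3bgrl* and *Sh3bgrl3* went the other way between the cell types. *Sh3bgrl* had a level of 1.56 in type II-like and 0.328 in type I cells of iCON (log2 ratio 2.10, 2.02 to 2.54), and of 1.47 and 0.254 in iCKO (2.33, 1.81 to 3.13). *Sh3bgrl3* had a level of 3.80 in type II-like and 1.46 in type I cells of iCON (1.35, 1.21 to 1.53), and of 3.79 and 1.42 in iCKO (1.39, 1.002 to 1.80). *Sh3bgrl2* had levels of 0.311 and 0.144 in iCON and of 0.344 and 0.148 in iCKO, from 28 and 5 UMIs in the type II-like cells. Both *Sh3bgrl* and *Sh3bgrl3* were past the fold, in a contrast in which 25.3% of genes in iCON and 33.2% in iCKO were higher in type II-like cells. *Sh3bgrl* passed the minimum through the type II-like cells alone in both libraries, so nothing is read from its place past the fold. A share of that size does not set these members apart from other genes.

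The whole-library ratios of *Sh3bgrl* (-0.50) and *Sh3bgrl3* (-0.14) include unequal numbers of type II-like cells. In type I cells alone, the iCKO over iCON log2 ratio of *Sh3bgrl3* was -0.05 (-0.15 to 0.02), that of *Sh3bgrl2* was 0.04 (-0.23 to 0.29), and that of *Sh3bgrl* was -0.31 (-0.49 to -0.11). *Sh3bgrl* was also compared by myelin-gene RNA. Type I cells with under 7 UMIs per 10000 of the glia list had a *Sh3bgrl* level of 0.136 in 95 iCON cells and 0.131 in 151 iCKO cells. Those with 7 or more had 0.381 in 337 iCON cells and 0.329 in 249 iCKO cells. High over low gave 1.21 (0.93 to 1.68) in iCON and 1.07 (0.89 to 1.68) in iCKO. *Sh3bgrl* itself stayed under the minimum level, and 4.02% and 3.11% of the genes above it were higher past the fold.

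Low myelin-gene RNA was found in 23.8% of iCON cells and 38.6% of iCKO cells. Within type I cells of low myelin-gene RNA the iCKO over iCON log2 ratio of *Sh3bgrl* was -0.04 (-0.64 to 0.38), and within those of high myelin-gene RNA it was -0.19 (-0.36 to 0.06). The *Sh3bgr* ratio in the same cells was 1.50 (1.29 to 1.74) and 2.11 (2.04 to 2.32). High over low myelin-gene RNA gave -0.42 (-0.69 to -0.23) for *Sh3bgr* in iCON and 0.19 (0.07 to 0.34) in iCKO. Both ratios were under the fold, and in iCON both levels were under the minimum. *Sh3bgrl3* had a high over low ratio of 0.06 (-0.03 to 0.23) in iCON and 0.05 (-0.04 to 0.23) in iCKO. *Sh3bgrl2*, under the minimum in both libraries, had log2 ratios of -0.35 (-0.71 to 0.06) and -0.29 (-0.83 to 0.0043), under the fold and with intervals that included 0.

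**Figure D4:**
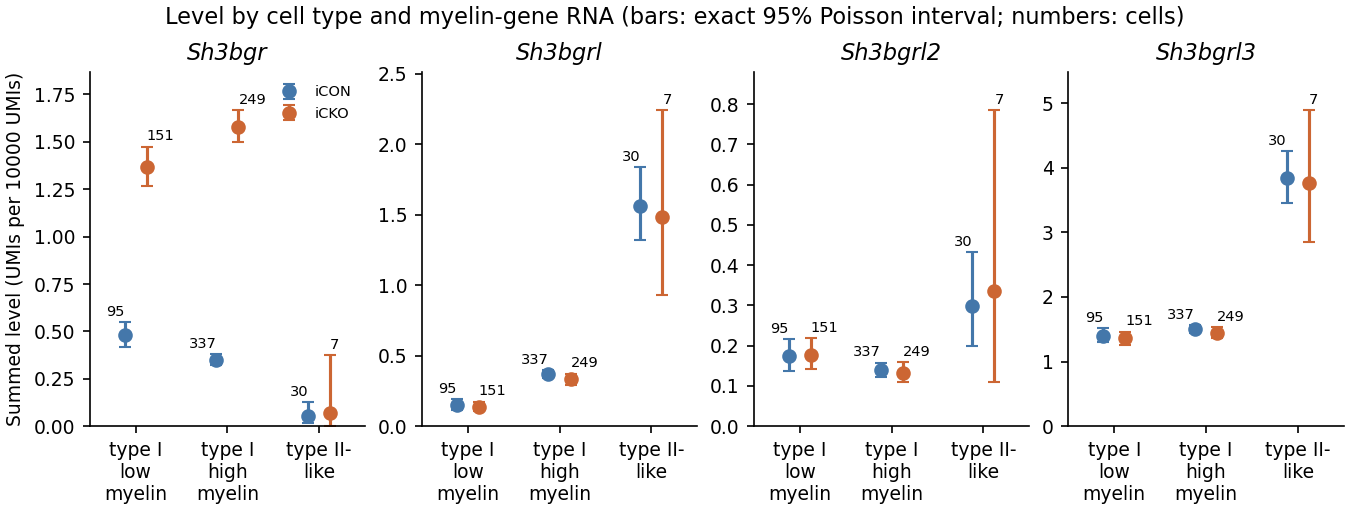
Level of each gene (summed UMIs per 10000 UMIs, bars are exact 95% Poisson intervals, numbers are cells, each panel with its own axis from 0) in type I cells with low or high myelin-gene RNA and in type II-like cells. *Sh3bgr* separates the libraries in type I cells (at low myelin-gene RNA, 0.481 for iCON and 1.37 for iCKO), while the paired points of each paralogue lie close together within each class.

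*Sh3bgrl3* was then compared between the *Lypd1* and *Calb2* classes of type I cells. Its level was 1.72 in 180 iCON type I cells with high *Lypd1* and 1.25 in 226 with low *Lypd1* (log2 ratio 0.45, 0.35 to 0.56), and 1.52 and 1.35 in iCKO (0.16, 0.02 to 0.30), both ratios under the fold. High over low *Calb2* in type I cells gave -0.54 (-0.67 to -0.38) in iCON, where *Sh3bgrl3* was past the fold together with 5.47% of genes. In iCKO it gave -0.21 (-0.49 to -0.01), from 31 cells of low and 227 of high *Calb2*.

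The sexes of the cells were not balanced between the libraries. *Xist* without a Y-linked gene was found in 252 iCON cells (54.5%) and 319 iCKO cells (78.4%), and a Y-linked gene without *Xist* in 202 and 82. These cells come from different animals of the same 2 libraries. In *Xist* cells *Sh3bgr* had levels of 0.395 in iCON and 1.54 in iCKO (log2 ratio 1.84, 1.66 to 1.95), and in Y-linked cells 0.246 and 1.18 (2.06, 1.9997 to 2.49). *Sh3bgr* was past the fold in both, with 3.16% and 2.2% of genes higher. This repeats the contrast that chose the gene, which passed the minimum through iCKO alone in both sexes, and nothing is read from it. Among type I cells the *Sh3bgr* ratio was 1.69 in *Xist* and 2.17 in Y-linked cells, that of *Sh3bgrl* was -0.17 and -0.75, and that of *Sh3bgrl3* was -0.07 and -0.01. With type II-like cells included, the *Sh3bgrl3* ratio was -0.31 with *Xist* and 0.18 with Y-linked RNA, so its direction differed between the sexes, and both type I values lay near 0.

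Some classes became small when divided by sex. All 30 type II-like iCON cells were *Xist* cells and all 7 of iCKO were Y-linked cells. In Y-linked cells without a *Runx1* UMI, *Sh3bgr* had a level of 0.611 in 22 iCON cells and 0.303 in 13 iCKO cells, of which 7 were type II-like, a log2 ratio of -0.90 (-1.93 to 0.07). With type I cells only it was 0.611 in 22 and 0.578 in 6 cells (-0.07, -1.20 to 0.89). *Sh3bgrl* in the same Y-linked cells without *Runx1* had 0.337 in 22 iCON and 0.888 in 13 iCKO cells (1.28, 0.44 to 2.02), and 0.204 in the 6 iCKO type I cells, from 3 UMIs (-0.60, -3.24 to 0.77). The pseudogene *Gm1821* nearly coincided with the library: at least 5 UMIs were found in 417 of 462 iCON cells and 25 of 407 iCKO cells, and 24 of those 25 were Y-linked cells. The Y-linked cells could therefore be divided by it in both libraries. Those with at least 5 *Gm1821* UMIs had *Sh3bgr* levels of 0.220 in 159 iCON and 1.03 in 24 iCKO cells (2.002, 1.83 to 2.63). Those with fewer had 0.344 in 43 and 1.24 in 58 cells (1.71, 1.36 to 2.11).

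Within a library, no relation of the paralogues with *Sh3bgr* from cell to cell was resolved. In type I cells thinned to 20000 UMIs, iCON had 280 cells without and 144 with a *Sh3bgr* UMI. Without and with it, the level was 0.332 and 0.340 for *Sh3bgrl*, 0.127 and 0.149 for *Sh3bgrl2*, and 1.51 and 1.47 for *Sh3bgrl3*. In iCKO, with 79 and 319 cells, the levels were 0.253 and 0.262, 0.177 and 0.144, and 1.32 and 1.45. All 6 intervals of the log2 ratio included 0 and allow differences of the sizes they span. The widest was that of *Sh3bgrl2* in iCKO (-0.92 to 0.37), and the narrowest was that of *Sh3bgrl3* in iCON (-0.21 to 0.13).

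Correlations over cells of 1 library are given as descriptions. Sparse counts can hold such values near 0, so low values say little on whether genes move together. Spearman's rho of *Sh3bgr* with *Sh3bgrl*, *Sh3bgrl2* and *Sh3bgrl3* was 0.04, 0.02 and -0.02 over 424 thinned iCON type I cells, and 0.04, -0.05 and 0.06 over 398 iCKO cells. With *Calb2*, *Lypd1* and *Runx1*, *Sh3bgr* had a rho of 0.29, -0.25 and -0.27 in iCON, and of -0.02, 0.09 and 0.07 in iCKO. *Sh3bgrl* had its highest values with myelin-gene RNA, at 0.20 in iCON and 0.26 in iCKO.

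Genes above the minimum were ranked by how closely they tracked *Sh3bgr* over groups of cells. Groups were made by library, *Lypd1* class and *Runx1* detection, and 8 of the 12 held at least 10 cells. Over these 8 groups, which share 2 libraries, the highest Pearson correlations of log2 level among 3760 genes were those of *Vcpip1* (0.97), *Hnrnpul2* (0.97), *Rangap1* (0.97), *Abr* (0.96) and *Vcp* (0.96). The *Sh3bgr* log2 level ran from -2.33 to -0.64 over the 4 iCON groups and from 0.43 upwards over the 4 iCKO groups. The library difference that chose *Sh3bgr* thus makes up most of its profile. A high r largely describes a steady offset between the libraries, and a low r for a paralogue restates that contrast. The iCKO over iCON log2 ratios of the 5 genes were small, at 0.21, 0.21, 0.30, 0.29 and 0.16. *Vcp* encodes an ATPase that unfolds ubiquitin-tagged proteins, *Vcpip1* a deubiquitinase that binds it, and *Rangap1* the activator of the Ran GTPase in nuclear transport. The paralogues had correlations of -0.16 for *Sh3bgrl*, -0.03 for *Sh3bgrl2* and -0.09 for *Sh3bgrl3*.

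Other genes of thioredoxin-like fold and of the peroxide-reducing system were also described between the libraries. All 26 on the list were in the table and 17 passed the minimum. Of these 0 were higher and 1 lower past the fold in iCKO, beside 1.62% and 2.74% of all 3761 genes. Nothing is read from these counts. The median log2 ratio was 0.01, beside 0.01 over all 3761 genes. The 1 lower gene was *Prdx1*, a cytosolic peroxiredoxin, with levels of 2.002 and 1.33 (-0.57, -0.60 to -0.44). *Prdx3*, the mitochondrial peroxiredoxin, was next (-0.46), and the highest were the glutaredoxins *Glrx3* and *Glrx5* (0.19 each). No gene of this list had a ratio near that of *Sh3bgr*. Since *Sh3bgr* was chosen by its high ratio, nothing is read from that.

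The genes around *Sh3bgr* on chromosome 16 were described because *Runx1*, whose alleles differ between the genotypes, lies on the same chromosome. Of 92 names from *Runx1* to beyond *Sh3bgr*, 31 were listed, 20 had a mean of at least 0.1 and 7 passed the minimum. None of the 7 was past the fold in either direction, where 1.62% of all 3761 genes were higher and 2.74% lower. Nothing is read from so small a count. The log2 ratios of the 7 ran from -0.24 to 0.36 with a median of 0.11. The highest were *Runx1* (0.36) and *Dopey2* (0.18), and the lowest were *Hmgn1* (-0.24) and *Pigp* (-0.20).

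The nearest listed genes are given as a description, since *Sh3bgr* was chosen by its high ratio and a smaller one beside it says little. *Lca5l*, next before *Sh3bgr*, had 42 and 22 UMIs in the libraries, and *B3galt5*, next after it, had a level of 0.343 in iCON and 0.337 in iCKO (-0.02, -0.21 to 0.12). *Wrb* had 0.391 and 0.363 (-0.10, -0.25 to 0.07), and *Brwd1*, a bromodomain gene, had 0.669 and 0.758 (0.17, 0.08 to 0.31). *Ets2*, a transcription factor gene, had 0.166 and 0.268 (0.56, 0.48 to 0.90), under the minimum level, and was named after its value was seen. The *Pcp4* ratio in this region rests on 2 cells, as given above.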

How the data were processed

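The deposited expression table holds, per cell, natural log values of CPM (listed-gene UMIs at a fixed total per cell), with 1 added before the log, a unit settled from its values. A second deposited table gives each barcode a text label for its library. Cell Ranger, Seurat and mm10 are named, without roles, in the submitters' processing notes. Filters on cells and genes are not given in the sources used here. Back on the linear scale, every one of the 869 cells had the CPM total, and 100% of the nonzero values were whole multiples of that cell's smallest step within 1e-06, so whole UMIs were recovered: 22011292 in iCON (16168 to 93322 per cell) and 13743824 in iCKO (18582 to 79487). Thinning to 20000 UMIs left out 8 iCON and 2 iCKO cells. Doublets were not called.

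No test was run, as each group is 1 library. The computation of ratios and intervals was checked on simulated Poisson counts, the model that the intervals assume. That check does not show how well the intervals cover these cells, where *Sh3bgr* varied more than a Poisson count. Levels, exact Poisson and Clopper-Pearson intervals and Spearman correlations were computed with Python 3.11.15, numpy 2.4.6, pandas 2.3.3 and scipy 1.17.1, alignments with biopython 1.88 and blastn 2.17.0, and figures with matplotlib 3.10.9. Transcripts came from GENCODE M21. Of the 4 members, 3 had an entry among the RefSeq promoters, and no promoter was used.

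The members, the gene lists and the classes were chosen with earlier results of these data known. The type II-like and myelin boundaries were set after the values were seen, without looking at the members, and 0 and 3 cells lay near them. Named genes were the members, the 2 highest and 2 lowest ratios past the minimum of a fixed list (the redox list, the neighbours and *Nefm* of the neuron list), and the 5 genes most like *Sh3bgr*, besides the nearest neighbours, *Syt1*, *Ets2* and *Pcp4*, named after their values were seen. *Gm1821*, which nearly coincided with the library, and *Col1a2* were named outside these rules. Marker lists past the minimum gave 1 of 1 higher for type Ia, 1 higher and 1 lower of 2 for Ib, 1 lower of 2 for Ic, 1 lower of 1 for type II, and 0 of 1 for fibroblast or bone, hair cell and sex. The shares over all 3761 genes were 1.62% higher and 2.74% lower.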

Additional observations from a re-analysis of the deposited data

How the results depend on the processing

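With 1 library per genotype, depth limits only how well these libraries are described. No paired analysis was possible because each group has 1 library. Over 72 results, 336 alternatives were run, of which 249 stayed close to the value (for ratios, by less than the half-width of its counting interval), 82 moved and 5 reversed. A ratio counts as reversed where its size was over 0.5 and its sign turned, so the sign changes of *Sh3bgrl3* below, from -0.14, are among the moved. The *Sh3bgr* ratio of iCKO over iCON was above 0 in 57 of 58 alternatives. The lowest was -0.90, in Y-linked cells without *Runx1*. The highest was 4.92, in Y-linked cells of the middle *Lypd1* class, and rests on few cells and few UMIs. Over all 26 iCON and 20 iCKO cells of that class the ratio was 3.15. Type I Y-linked cells without *Runx1* (22 and 6 cells) gave -0.07 and are not in that count.

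In all cells *Sh3bgr* (1.99) was 2.11 with a pseudocount of 0.01, 1.24 with 0.5, 1.84 in *Xist* cells, 1.61 and 2.15 in cells of low and high myelin-gene RNA, 1.48 in cells with at least 5 *Gm1821* UMIs, 2.32 without the top 5% of cells, and 2.39 with equal weights for the *Lypd1* classes. *Sh3bgrl* (-0.50) was -0.23 with a pseudocount of 0.5, -0.31 without type II-like cells, -0.20 in Y-linked cells, and -1.15 and -0.29 with at least and under 5 *Gm1821* UMIs. *Sh3bgrl3* (-0.14) was -0.0454 without type II-like cells, -0.31 with *Xist*, 0.18 with Y-linked RNA and 0.0280 with under 5 *Gm1821* UMIs. Of alternatives chosen after seeing the data, type I cells of low and high myelin-gene RNA gave 1.50 and 2.11 for *Sh3bgr*, -0.0445 and -0.19 for *Sh3bgrl*, and -0.0324 and -0.0381 for *Sh3bgrl3*.

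By class, *Sh3bgr* at low *Lypd1* (1.48) was 1.31 in *Xist* cells. At low *Calb2* (2.11) it was 2.57 in *Xist* and 1.27 in Y-linked cells, with all type II-like cells among the iCON *Xist* and iCKO Y-linked cells. At high *Calb2* (0.62) it was 1.27 with boundaries of 5 and 50, which move cells of the former middle class into the high one. With *Runx1* detected (2.26) it was 2.46 by thinned UMIs, 2.55 by at least 2 UMIs, 2.07 with *Xist*, 2.47 with Y-linked RNA and 2.42 with a pseudocount of 0.01. With *Runx1* undetected (1.12) it was 0.75 without type II-like cells, 1.37 with *Xist* and -0.90 with Y-linked RNA, where 7 of 13 iCKO cells were type II-like.

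*Sh3bgrl* reversed in Y-linked cells at middle *Lypd1* (0.16 in place of -0.53) and without *Runx1* (1.28 in place of -0.82). The 0.16 rests on few cells and few UMIs. Without type II-like cells, also chosen after seeing the data, its high over low *Calb2* ratio was 0.12 in place of -0.55 in iCON and 0.33 in place of -0.61 in iCKO. The 1.28 became -0.60 in type I cells alone, and the cause was not tested for the 0.16. Thinning lowered the shares of cells with a UMI in iCON and iCKO to 32.4% and 79.0% for *Sh3bgr*, 50.9% and 37.3% for *Sh3bgrl*, 24.7% and 25.9% for *Sh3bgrl2*, and 94.7% and 91.9% for *Sh3bgrl3*. With no minimum level, 2 neighbours on chromosome 16 were higher past the fold in iCKO in place of 0.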
